A study of Mus musculus with 18 samples.

Results

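On the Agilent mouse arrays of this study, 3 probes without a gene symbol had low signal in brains lacking the transcription factor Nrf2. They are A_51_P148966, A_52_P324934 and A_52_P1186875, designed to the cDNA accessions AK017540, AK045391 and AK012417, by which they are called here. They were chosen by that low signal in KO arrays, out of 41174 probes and out of 7846 tested probes without a symbol. AK017540 and AK045391 were called lower in knockout brains averaged over the regions, and AK012417 was called lower in knockout cortex. The knockout difference of the 3 probes is therefore given as a description, with no test.

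The study used male 129SV mice that were not stressed, and compared Nrf2 knockout (KO) with wild-type (WT) animals in cerebral cortex, hippocampus and brainstem. Each of the 6 groups of region and genotype had 3 arrays, 18 in all, each hybridised with RNA of 1 labelled sample. Ages, the deleted part of the gene and the way the mice were bred are not given in the sources used here. The labels name no tissue-specific driver for the knockout.

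Nrf2, encoded by Nfe2l2, is held at a low level by the adaptor Keap1, which marks it for degradation. Oxidants and electrophiles release it, and it then binds antioxidant response elements with small Maf proteins and switches on enzymes of detoxification and glutathione use. It also sets part of the basal level of such genes in unstressed tissue, in brain most visibly in astrocytes. Accessions with the prefix AK stand largely for full-length mouse cDNA clones that were sequenced in bulk, and many such clones are non-coding or are further forms of known genes. No gene, position or sequence was assigned to the 3 probes here, so none of them has a known role.

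Between 65.3% and 75.1% of the spots of an array were well above background, 0 were saturated, and the number of arrays limited the precision. KO brainstem array 1 had the fewest spots well above background, 65.3%, and the widest spread between spots of the same probe, 6.06%. The mean level of the cortex markers was 0.81 to 0.95 in KO cortices and 0.77 to 0.80 in WT cortices. That of the hippocampus markers was 0.75 to 1.32 in KO hippocampi and 1.10 to 1.37 in WT hippocampi, against -1.81 to -1.17 elsewhere. That of the brainstem markers was -2.20 to -2.06 in KO brainstems and -2.04 to -1.99 in WT brainstems, against -6.75 to -5.29 elsewhere. Levels are log2 intensities with the 75th percentile of the array set to 0. Nfe2l2 was well above background on 0 of 3 KO cortices, 3 of 3 KO hippocampi and 1 of 3 KO brainstems, and on 9 of 9 WT arrays. Its group means were -7.92, -4.64 and -6.25 in KO cortex, hippocampus and brainstem, against 0.89, 0.96 and 1.26 in the WT groups. In the deposited table, 7 of 18 columns equalled another array than the one they name. KO cortex array 3 is one of them, and the column named for KO hippocampus array 3 held it. Its marker levels, 0.86 for cortex and -1.17 for hippocampus, were those of a cortex.

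In cortex, AK017540 had levels of -8.29, -8.72 and -5.61 in KO arrays, against -4.05, -4.21 and -3.75 in WT arrays. In hippocampus it had -5.29, -7.18 and -6.98 in KO arrays, against -3.40, -3.34 and -3.61 in WT arrays. In brainstem it had -7.61, -7.67 and -7.43 in KO arrays, against -4.42, -4.39 and -3.69 in WT arrays. The values of KO cortex arrays 1 and 2 and of KO brainstem array 1 were stand-ins, not measured levels. Feature Extraction writes a stand-in when a spot does not differ from its background. All WT arrays lay above all KO arrays, within each region and over the 3 regions together. The choice by low KO signal favours such a separation, here and for AK045391 below. How many of all genes separate in this way is not given. On the log2 scale the KO arrays were the more scattered in cortex, where 2 of 3 KO values were stand-ins, and in hippocampus. In linear intensity the SD was 9.8 in KO and 10.6 in WT cortices, and 8.3 in KO and 3.6 in WT hippocampi. The KO minus WT difference was -3.54 in cortex. It was -3.03 in hippocampus, -3.40 in brainstem, and -3.32 averaged over the regions. The probe was well above background on 2 of 9 KO arrays, cortex 3 and hippocampus 1, and on 9 of 9 WT arrays. In brainstem, where 0 of 3 KO arrays were, the level was at least 4.34-fold lower in KO arrays. That bound sets each KO array to the lowest signal among its probes well above background, which was highest on KO brainstem array 1, at -5.50. In the other regions some KO arrays were well above background, so no bound is given.

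AK045391 was dim in KO arrays but was mostly measurable there. In cortex it had levels of -5.62, -6.27 and -7.93 in KO arrays, against -4.46, -4.35 and -5.56 in WT arrays. In hippocampus it had -5.41, -5.60 and -7.03 in KO arrays, against -3.81, -3.31 and -4.62 in WT arrays. In brainstem it had -6.28, -5.28 and -5.64 in KO arrays, against -3.24, -2.98 and -3.51 in WT arrays. The genotypes did not overlap within a region, narrowly in cortex, where KO array 1 lay next to WT array 3. Across regions they did overlap, since KO hippocampus array 1 and KO brainstem array 2 lay above WT cortex array 3. The KO minus WT difference was -1.82 in cortex. It was -2.10 in hippocampus, -2.49 in brainstem, and -2.14 averaged. It was well above background on 5 of 9 KO arrays and on 9 of 9 WT arrays.

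AK012417 was well above background on 3 of 18 arrays, the WT cortices. Its levels in cortex were -8.28, -8.71 and -8.69 in KO arrays, against -5.14, -4.77 and -5.19 in WT arrays. All 3 KO cortex values were stand-ins that Feature Extraction writes when a spot does not differ from its background. With each KO cortex array set to the lowest signal among its probes well above background, the level was at least 2.62-fold lower in KO cortex than in WT cortex. In hippocampus and brainstem 0 of 3 arrays of either genotype were well above background. The levels there ran from -8.86 to -7.16 in KO hippocampi, -9.01 to -7.35 in WT hippocampi, -8.73 to -7.58 in KO brainstems and -8.69 to -8.36 in WT brainstems. The genotypes overlapped in both regions, and no fold is given between values not well above background.

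**Figure D1:**
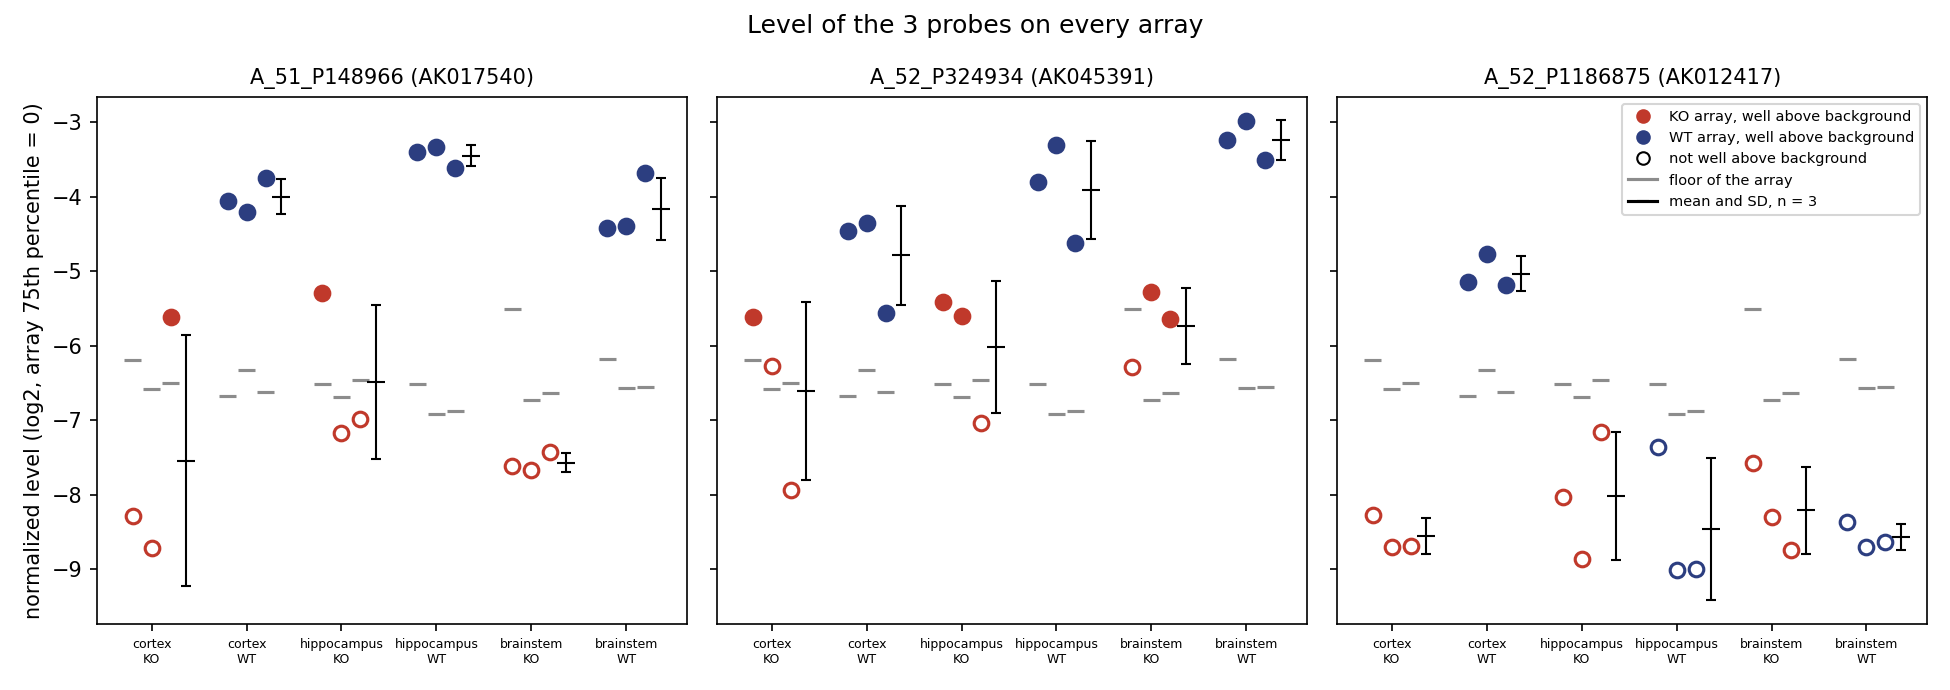
Normalized log2 level of the 3 probes (y axis, 75th percentile of the array = 0) on every array, replicates 1 to 3 from left to right within a group, KO groups in red and WT groups in blue. Filled points are well above background, open points are not, grey marks are the lowest signal among probes well above background on that array, and black bars are the mean and SD of 3 arrays. AK017540 and AK045391 are filled on 9 of 9 WT arrays, whereas AK012417 is filled on 3 arrays, the WT cortices.

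The members called lower were 1 in cortex and 2 averaged over the regions, which is what chose them. Among all 22671 genes tested, limma called 7 in cortex (0.0309%), 4 in hippocampus (0.0176%), 7 in brainstem (0.0309%) and 12 in the average (0.0529%) at an adjusted p under 0.05, in either direction. Of the 7846 probes without a symbol it called 1 in cortex (0.0127%) and 2 in the average (0.0255%). It called 0 of them in hippocampus, where 89 had an unadjusted p under 0.05, and 0 in brainstem, where 247 did. With the replicate number as a block, limma called 23 genes in the average. The next probes without a symbol outside the averaged call were AK046329, at 1.07, and AF208109, at -0.58. In cortex AK012417 was inside the call at -3.53, and AK017540 was outside it at -3.54, with a wider log2 spread between arrays. The KO cortex values were 3 stand-ins for AK012417, and 2 stand-ins and 1 measured level for AK017540.

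All 3 members carry AK accessions, as 8638 of the 14484 probes without a symbol do. Of the 4422 tested AK probes, the median KO minus WT was -0.02 in cortex, 0.03 in hippocampus and -0.06 in brainstem, against 0.00, 0.02 and 0.00 over all genes tested. Each accession is represented by 1 probe, so no further probe bears on the same transcript. The members were dim even in WT brain. The AK017540 signal lay between the 3.57th and 34.1st percentile of the probes on KO arrays and between the 40.5th and 48.7th on WT arrays. AK045391 lay between the 20.5th and 33.8th on KO arrays and between the 33.7th and 51.4th on WT arrays.

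The unprocessed spots gave the same order at a smaller scale. The spot of AK017540 exceeded its local background by 9.5 to 31 units in KO cortices, 15 to 27 in KO hippocampi and 11 to 14 in KO brainstems. In the WT groups it did so by 49.5 to 74, 91.5 to 97 and 47 to 79 units. The genotypes did not overlap, a separation that the choice by low KO signal favours for each probe. For AK045391 the excess was 8 to 19.5, 14.5 to 21 and 18 to 26.5 units in KO cortex, hippocampus and brainstem, against 21 to 43, 44.5 to 87 and 76 to 125 in the WT groups. For AK012417 it was 6.5 to 14 in KO cortices and 30.5 to 39.5 in WT cortices. The local background itself was 24 to 32 around all 3 probes and in both genotypes. Spots within 2 rows or columns differed between KO and WT by -0.35 to 0.27 log2 units on average, beside AK017540 and AK045391 in any region and AK012417 in cortex. Normexp, another background correction, was run with an offset of 50 units added to each spot. With it, KO minus WT shrank to -0.69, -0.91 and -0.66 for AK017540 in cortex, hippocampus and brainstem. It shrank to -0.36, -0.60 and -0.86 for AK045391 and to -0.48 for AK012417 in cortex. The direction was the same, and the size of the knockout difference changed with the treatment of signals near background.

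**Figure D2:**
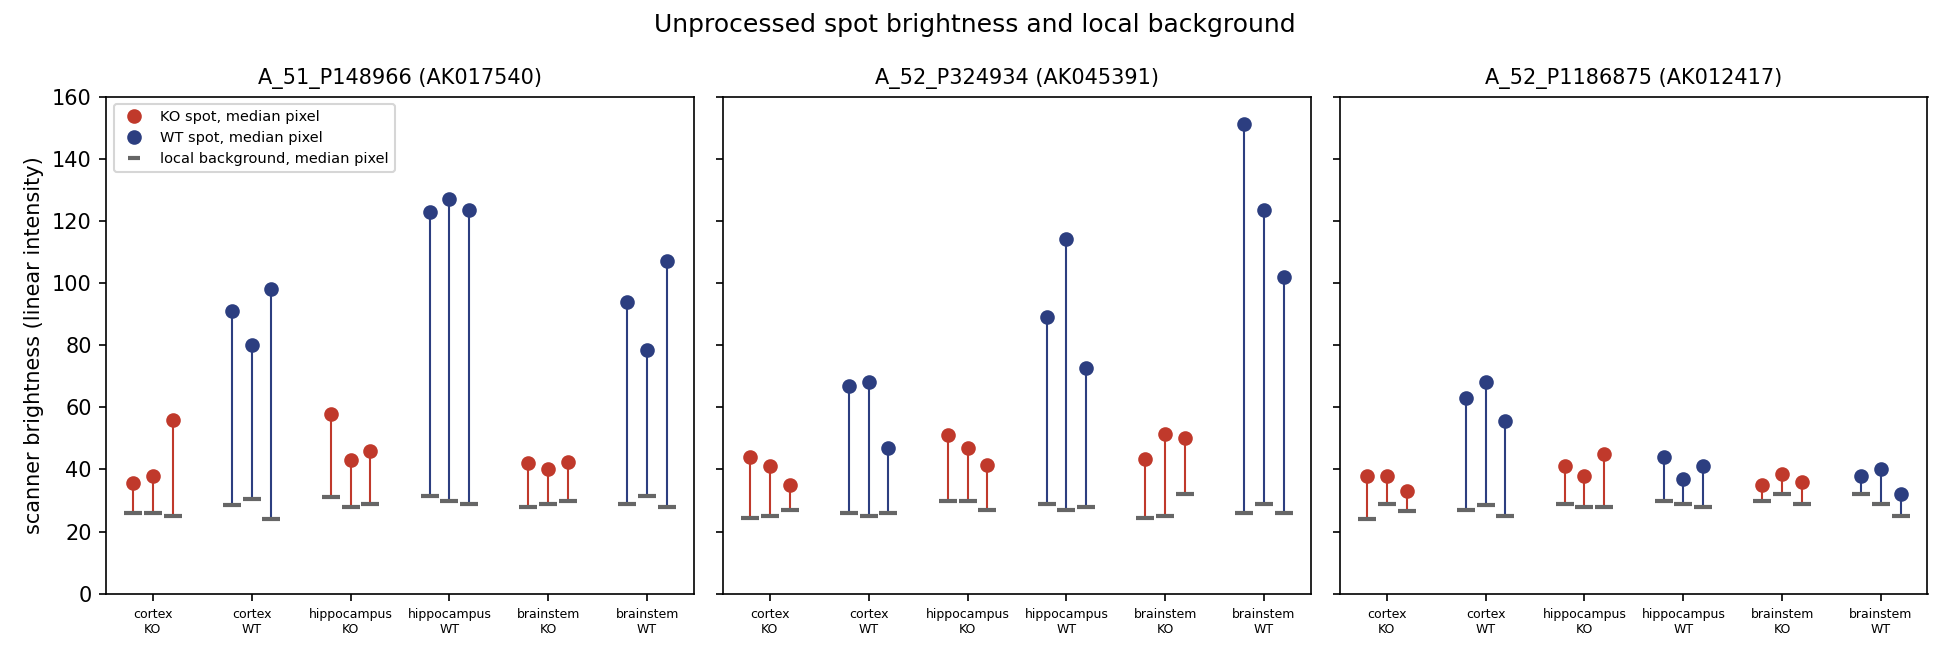
Unprocessed brightness of the 3 spots (y axis, median pixel in linear intensity units) on every array, in red for KO and blue for WT, with the median pixel of the local background as a grey mark and the excess as a line. The background stays between 24 and 32 while the WT spots of AK045391 reach an excess of 125 in brainstem.

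KO and WT arrays of the same replicate number shared a slide, so the knockout difference can be read within slides. For AK017540 it was -4.37 on slide 4 and -1.87 on slide 5 in cortex, -1.89 on slide 2 and -3.60 on slide 3 in hippocampus, and -3.23 on slide 1 and -3.74 on slide 2 in brainstem. For AK045391 it was -1.54 and -2.37 in cortex, -1.60 and -2.35 in hippocampus, and -2.67 and -2.13 in brainstem on the same slides. For AK012417 it was -3.54 and -3.50 in cortex. Every within-slide value of these pairs was below 0. Slides 4, 3 and 1 held 2 arrays per genotype of the region named, and slides 5 and 2 held 1 per genotype.

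**Figure D3:**
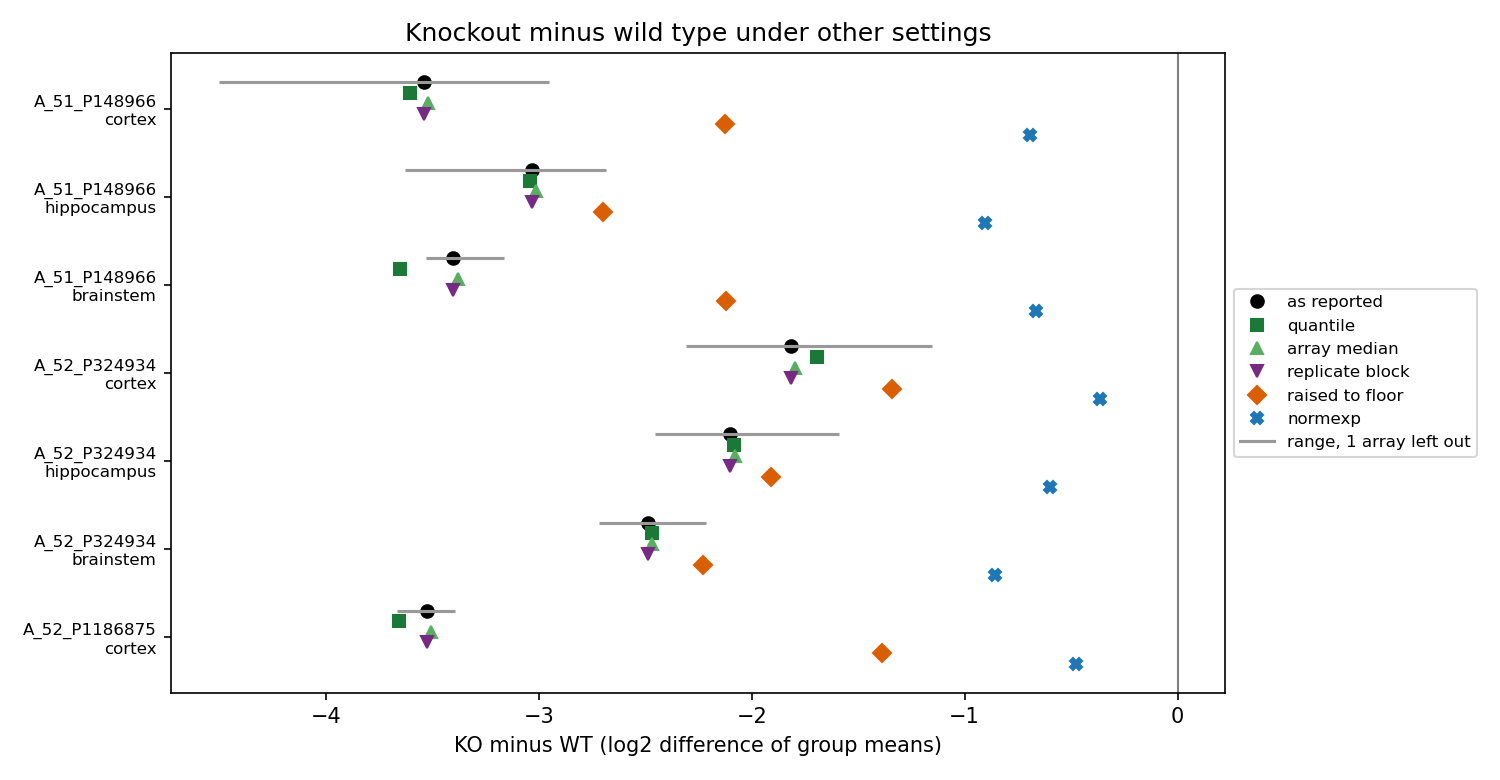
KO minus WT (x axis, log2 difference of group means of 3 arrays) for each probe and region as reported and under other settings, with the range over leaving out 1 array as a grey line. All marks lie below 0, and the normexp values are the nearest to it, from -0.91 to -0.36.

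Differences between regions were not used to pick AK017540 and AK045391, and were tested. In WT mice AK017540 had its highest mean in hippocampus, -3.45 ± 0.14, then in cortex, -4.00 ± 0.23, and then in brainstem, -4.17 ± 0.42 (SD, n = 3 each). Brainstem minus hippocampus was -0.71 (95% interval -2.05 to 0.62, limma adjusted p = 0.384), with all 3 brainstem arrays below all 3 hippocampus arrays. Over the alternatives the adjusted p of this difference ran from 0.0200 with normexp to 0.569 without 1 array, and it was 0.0393 when only these 2 groups were fitted. Hippocampus minus cortex was 0.55 (-0.79 to 1.89, limma adjusted p = 0.609) and brainstem minus cortex was -0.16 (-1.50 to 1.17, limma adjusted p = 0.866). Of all genes, limma called 41.5%, 17.2% and 35.8% in these comparisons. Neighbours in the order thus did not differ beyond the spread used by the test, and the intervals leave room for differences above 1 log2 unit. That spread is shared by all 6 groups, and the SD was 1.68 in KO cortex and 1.04 in KO hippocampus. With only the 2 groups fitted, hippocampus minus cortex had an SE of 0.15 (limma adjusted p = 0.0510). Brainstem minus cortex then had an SE of 0.24 (limma adjusted p = 0.621).

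In WT mice AK045391 had its highest mean in brainstem, -3.24 ± 0.26, then in hippocampus, -3.91 ± 0.66, and its lowest in cortex, -4.79 ± 0.67 (SD, n = 3 each). All 3 brainstem arrays lay above all 3 cortex arrays. The level was 2.92-fold higher in brainstem than in cortex, a difference of 1.55 ± 0.57 (SE, 95% interval 0.33 to 2.76, limma adjusted p = 0.0461). In this comparison limma called 35.8% of all genes, and 19.1% as higher in brainstem, so 1 call is close to the background. The call was lost with the array median as scale (1.46, limma adjusted p = 0.0505), without a filter on dim probes (limma adjusted p = 0.0713) and with slide as a random block (1.60, limma adjusted p = 0.0575). It was also lost whenever 1 of the 6 arrays was left out, with values of 1.16 to 1.77 and limma adjusted p of 0.0526 to 0.181. Same-numbered WT cortices and brainstems deviated together, but arrays of different number were not compared, so a pairing by number is not shown. With the replicate number as a block the limma adjusted p was 0.00629. Cortex shared no slide with the other regions, so slide and region cannot be told apart within a slide. Spots beside this probe differed the other way, by -0.45. Hippocampus minus cortex was 0.87 (-0.34 to 2.09, limma adjusted p = 0.339) and brainstem minus hippocampus was 0.67 (-0.54 to 1.88, limma adjusted p = 0.367).

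For AK012417, WT cortex is the group whose arrays entered its choice, and its region differences are given without a test. The level was at least 3.33-fold lower in WT hippocampus and at least 2.64-fold lower in WT brainstem than in WT cortex. It was thus seen above background in 1 region and 1 genotype of the 6 groups.

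In KO mice AK017540 averaged -7.54 ± 1.68 in cortex, -6.48 ± 1.04 in hippocampus and -7.57 ± 0.13 in brainstem (SD, n = 3 each). With 2 of these 9 arrays well above background, no test or order between KO regions is given for it. AK045391 averaged -6.60 ± 1.19 in KO cortex, -6.01 ± 0.89 in KO hippocampus and -5.73 ± 0.51 in KO brainstem (SD, n = 3 each). It was well above background on 1 of 3 KO cortices, 2 of 3 KO hippocampi and 2 of 3 KO brainstems. The tests of AK045391 between KO regions thus rest partly on values near background. Hippocampus minus cortex was 0.59 (limma adjusted p = 0.532), brainstem minus cortex 0.87 (limma adjusted p = 0.263) and brainstem minus hippocampus 0.28 (limma adjusted p = 0.722) in KO mice. Of all genes, limma called 16.6%, 35.6% and 40.6% in these comparisons.

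The genes whose levels ran most like each member were ranked by Pearson r over the 18 arrays, among genes well above background on all WT arrays. These r hold the knockout contrast that chose the members, and the points share slides and the scale of the array. Of 20087 genes, the 5 most like AK017540 were Nfe2l2 (r = 0.93), Gstm1 (0.91), Gstm3 (0.90), Osgin1 (0.84) and Aox1 (0.76). Gstm1 and Gstm3 are mu-class glutathione transferases, Osgin1 is an oxidative stress-induced growth inhibitor, and Aox1 is aldehyde oxidase, which oxidises aldehydes and nitrogen heterocycles. All 5 were called lower in KO brains averaged over the regions. At the other end of the ranking Rbm45, an RNA-binding protein gene that was higher in KO brains by 3.50 in the average, had the lowest r, -0.83.

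Within a genotype, AK017540 and Nfe2l2 differed in how they ran. Their r was 0.61 over the 9 KO arrays and -0.08 over the 9 WT arrays. Most KO values of both probes were not well above background, and the KO value ran from 0.37 without hippocampus array 1 to 0.89 without cortex array 3. Both the highest AK017540 level in KO mice, -5.29, and the highest Nfe2l2 level in KO mice, -3.62, belonged to hippocampus array 1.

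The 5 genes most like AK045391 over the 18 arrays were Aox1 (r = 0.94), Osgin1 (0.87) and the unnamed AK033155 (0.83), AK054418 (0.82) and AK087135 (0.80), with Nfe2l2 next. Unlike the pair above, AK045391 and Aox1 also had a high r within each genotype. Their r was 0.80 over the 9 KO arrays and 0.83 over the 9 WT arrays. Aox1 was picked by its r over these same arrays, so these values only describe the pair. AK045391 was well above background on 5 of the 9 KO arrays. Over the 9 WT arrays the highest r of any gene with AK045391 was 0.99. For AK045391 and Aox1, other settings were as follows. With normexp it was 0.65 over KO arrays and 0.89 over WT arrays. Leaving out 1 array gave 0.58 to 0.88 over KO arrays, the lowest without cortex array 3, and 0.79 to 0.87 over WT arrays. In WT mice array 3 was the lowest of its region for both, in all 3 regions. Those levels were -5.56, -4.62 and -3.51 for AK045391 and -1.03, -1.18 and -0.67 for Aox1 in cortex, hippocampus and brainstem.

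The means of Aox1 were -2.13 ± 0.29, -1.65 ± 0.38 and -1.44 ± 0.03 in KO cortex, hippocampus and brainstem, against -0.78 ± 0.22, -0.57 ± 0.54 and -0.38 ± 0.25 in the WT groups (SD, n = 3 each). KO minus WT was -1.34, -1.09 and -1.06 in these regions. None of these passed the test alone, and Aox1 was called only in the average, at -1.16. Brainstem minus cortex was 0.68 ± 0.25 in KO mice (SE, limma adjusted p = 0.0450) and 0.40 ± 0.25 in WT mice (SE, limma adjusted p = 0.238). Aox1 was well above background on all 18 arrays, which the much dimmer AK045391 was not.

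**Figure D4:**
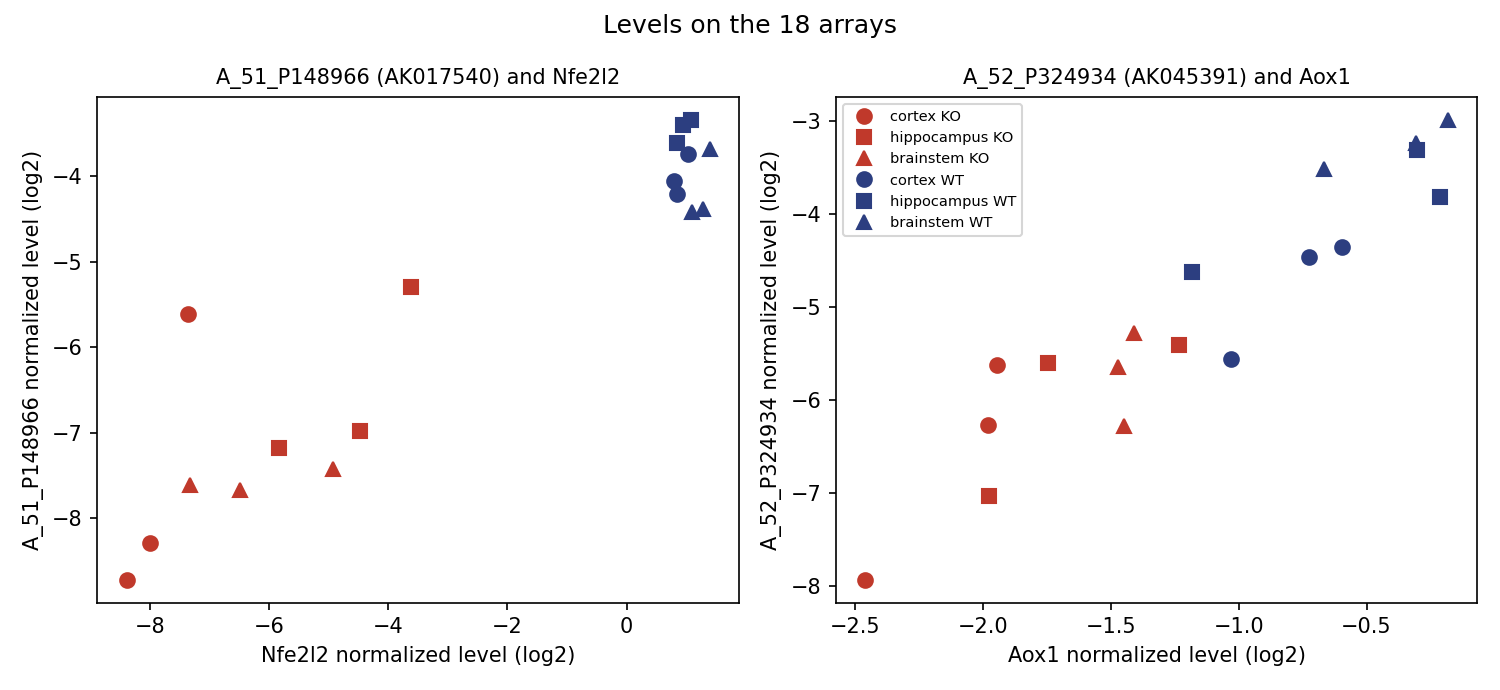
Normalized log2 level of AK017540 against Nfe2l2 (left) and of AK045391 against Aox1 (right), with 1 point per array, KO in red and WT in blue, and regions by symbol. On the left the genotypes form separate groups, with r = 0.61 within KO and -0.08 within WT. On the right r = 0.80 within KO and 0.83 within WT, over the arrays that also picked Aox1.

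AK012417 had no such neighbours. Its 5 highest r over the 18 arrays were 0.72 for BC056974, 0.70 for U89435, 0.67 for Klhl36, 0.65 for Rnf166, a ubiquitin ligase, and 0.65 for Elapor1, and Nfe2l2 ranked 2290 of 20088 with 0.33. AK012417 was well above background on 3 of the 9 WT arrays, the cortices. Its r over WT arrays thus mainly sets the cortices against values near background. Over the 9 WT arrays alone, the genes most like AK012417 were Prodh (0.99), which starts proline breakdown in mitochondria, and Stard8 (0.97). Those most like AK017540 over WT arrays were the unnamed AK012860 and AK018664 (0.98 each), with Gigyf2 (0.98), a translational repressor, the third. Those most like AK045391 were AK052970 and AK086555 (0.99 each), with Hnrnpa2b1 (0.99), an RNA-binding protein of splicing and transport, the fourth. With so many genes and 9 arrays, such values are the top of a very long list. Among themselves the members did not run together in WT mice, with r of -0.21 for AK017540 and AK045391, -0.22 for AK017540 and AK012417 and -0.68 for AK045391 and AK012417. The values with AK012417 again rest mainly on WT cortices set against values near background.

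Other genes of the pathway were described from a list of known targets. The list was chosen with earlier results of these data known, so its counts only describe. Of 28 measured NRF2 target genes of a list of 30, limma called 3 lower in KO cortex, 2 in KO hippocampus, 3 in KO brainstem and 4 in the average. Over all genes tested, the shares called lower were 0.0265%, 0.0132%, 0.0221% and 0.0441%. The medians of the list were -0.05, -0.06, -0.06 and -0.06, against 0.00, 0.02, 0.00 and 0.00 over all genes. Gstm1 had KO minus WT values of -1.03 in cortex, -0.81 in hippocampus and -1.01 in brainstem. Osgin1 fell by 2.02 in KO cortex and 1.67 in KO brainstem, and its value of -1.30 in hippocampus did not pass the test (limma adjusted p = 0.114).

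Of 68 measured markers of choroid plexus, oligodendrocytes, astrocytes, microglia, vessels, erythrocytes and striatum, limma called 0 between KO and WT in each region, against 0.0309%, 0.0176% and 0.0309% of all genes in cortex, hippocampus and brainstem. At shares that low, 0 of 68 says little. At an unadjusted p under 0.05 there were 3, 2 and 5 of the 68 markers, against 2.19%, 1.33% and 2.96% of all genes. The share among the markers was the higher in each region. In bulk tissue, fewer cells of a type and less RNA per cell cannot be told apart. Choroid plexus markers shifted most. Their median KO minus WT was -0.86 in cortex and -1.17 in hippocampus, with 0 of 12 higher in KO arrays in either region, and 0.43 in brainstem, with 11 of 12 higher in KO arrays. Their mean level was -3.78 to -0.46 in KO cortices and -1.77 to -0.70 in WT cortices. It was -2.85 to 0.73 in KO hippocampi and -2.95 to 1.24 in WT hippocampi, and -2.79 to -0.19 in KO brainstems and -2.85 to -1.28 in WT brainstems, so the genotypes overlapped everywhere. Striatum markers had a median of -0.34 in cortex, -0.02 in hippocampus and 0.37 in brainstem. Their mean level did not overlap in cortex, at -0.47 to -0.18 in KO and 0.06 to 0.25 in WT arrays, and overlapped elsewhere. Mean erythrocyte levels were higher in KO without overlap in cortex (-0.20 to 0.01 against -0.98 to -0.23) and hippocampus (-0.57 to -0.32 against -1.24 to -0.70). For erythrocytes, 3 of 7 markers were measured. Mean astrocyte levels were higher in KO without overlap in hippocampus (3.38 to 3.47 against 3.24 to 3.36). In every other pairing of these 7 lists with a region the genotypes overlapped. How many sets of genes separate in this way is not given. The part of choroid plexus, striatum, blood or astrocytes in the KO minus WT values of the 3 members was not tested. Between regions, WT brainstem had 11 of 11 measured oligodendrocyte and myelin markers called higher than WT cortex, against 19.1% of all genes, with a median of 1.14, beside the 1.55 of AK045391. Whether myelinating cells have a part in that difference was not tested.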

How the data were processed

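RNA of 18 mouse brain samples was amplified, labelled with Cy3 and hybridised to 1-colour Agilent arrays, per the labels. The authors deposited scanner outputs with an intensity per spot, which Agilent Feature Extraction 10.7.3.1 had corrected for background, per the file headers. Outlier spots (30 to 140 of 45018 per array) were left out, and the spots of a probe were averaged. Values were taken as log2 minus the 75th percentile of the array. A probe was kept if some group had it well above background on its 3 arrays, which left 30066 probes, and the brightest probe stood for a gene. Symbols came from a RefSeq table: 26690 probes had 1, 14484 had none and 0 had several. Tests used limma 3.58.1 in R 4.3.3, with 1 mean per group over 18 arrays, two-sided and adjusted by Benjamini-Hochberg over 22671 genes. Intervals use the standard error of that fit. Nothing says whether arrays of a group come from separate mice, so p-values cover only the variation among these arrays.

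The members and gene lists were chosen with earlier results of these data known. The genes named are the members, the 5 most like each, Nfe2l2, and the 2 with the smallest p of a list described. Rbm45, and the values of Aox1, were added after they were seen.

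The labels number the arrays alike in every group. Deviations from the group means of same-numbered KO and WT arrays of a region correlated at 0.24 to 0.62 in all 9 pairs. These arrays shared slides. Between regions of a genotype, all 3 same-numbered pairs were above 0.1 for WT cortex and brainstem (0.38 to 0.71) and KO hippocampus and brainstem (0.14 to 0.36). In the other 4 region comparisons at least 1 pair was lower, down to -0.05. Same-numbered WT cortices and KO brainstems, which differ in genotype, region and slide, gave 0.27, 0.46 and 0.64. Arrays of different number were not compared, so these values cannot show whether the numbers pair arrays.

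The alternatives were normexp, quantile and median scaling, the deposited table, other filters, every probe by itself, blocks for replicate and slide, other spread models, leaving out arrays and another floor. Normexp used median pixel signals, since no mean signal was used here. The planned search for genes beside the members on the chromosome was not done, because no positions were used. The limma script was tested on simulated data.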

Additional observations from a re-analysis of the deposited data

How the results depend on the processing

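AK017540 and AK045391 in each region, and AK012417 in cortex, kept a negative KO minus WT under every setting that gave a value. With normexp it was -0.69, -0.91, -0.66 and -0.76 for AK017540 in cortex, hippocampus, brainstem and the average, -0.36, -0.60, -0.86 and -0.61 for AK045391, and -0.48 for AK012417 in cortex. Normexp was run with an offset added to every spot, and such an offset shrinks log2 differences between dim signals. With arrays not well above background raised to the floor, an alternative chosen after seeing the data, AK017540 stood at -2.13 in cortex, -2.12 in brainstem and -2.31 in the average, and AK012417 at -1.39 in cortex. Within slides, AK017540 gave -1.87 in cortex on slide 5 and -1.89 in hippocampus and -3.74 in brainstem on slide 2. Leaving out 1 array gave -4.50 to -2.95, -3.63 to -2.69, -3.53 to -3.16 and -3.65 to -3.13 for AK017540 in cortex, hippocampus, brainstem and the average. It gave -2.31 to -1.15, -2.45 to -1.59, -2.72 to -2.21 and -2.30 to -1.91 for AK045391, and -3.67 to -3.39 for AK012417 in cortex. The bound for AK017540 in brainstem was 4.02-fold, and that for AK012417 in cortex 2.49-fold, with the 95th percentile of dim probes as floor.

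Between WT regions, brainstem minus hippocampus of AK017540 was called with normexp (-0.38) and with only these 2 groups (-0.71), was -0.28 on slide 2, and ran from -0.95 to -0.59 over left-out arrays. Its hippocampus minus cortex ran from 0.45 to 0.68, and its brainstem minus cortex from -0.40 to -0.04. Brainstem minus cortex of AK045391 lost its call with the array median (1.46), without a filter (1.55), with the slide block (1.60) and over left-out arrays (1.16 to 1.77). Hippocampus minus cortex ran from 0.49 to 1.23 and brainstem minus hippocampus from 0.32 to 0.97. For AK012417, WT hippocampus and brainstem minus cortex were -0.61 and -0.73 with normexp, and -3.97 to -3.14 and -3.63 to -3.40 over left-out arrays.

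Between KO regions, 4 signs turned, and most AK017540 values there were not well above background. For AK017540, hippocampus minus cortex was -0.025 with normexp and 0.46 to 2.02 over left-out arrays. Its brainstem minus cortex was 0.93 in the deposited table, where KO cortex array 3 had no column of its own, and -0.62 to 0.93 over left-out arrays. Its brainstem minus hippocampus was -2.14 on slide 2 and -1.43 to -0.49 over left-out arrays. For AK045391, hippocampus minus cortex was -0.015 with normexp and -0.072 to 1.10 over left-out arrays, brainstem minus hippocampus was -0.23 on slide 2 and -0.23 to 0.58 over left-out arrays, and brainstem minus cortex was 0.21 to 1.37. The cause of these changes was not tested.

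Counts of called genes moved from 12 to 23 in the average with the replicate block, and in cortex from 7 to 11 with the slide block. With only the 2 groups in the fit, limma called 1 gene in hippocampus, 0 in brainstem (400 at an unadjusted p under 0.05), 1995 in KO hippocampus minus cortex and 4662 in KO brainstem minus cortex, and with normexp 4 in brainstem. Over left-out arrays, the KO minus WT counts were 5 to 8 in cortex, 3 to 6 in hippocampus, 4 to 13 in brainstem and 9 to 13 in the average. The counts between regions were 2463 to 3484, 6595 to 7529 and 7834 to 9189 in WT, and 2526 to 3564, 7008 to 8757 and 7771 to 9703 in KO, for hippocampus minus cortex, brainstem minus cortex and brainstem minus hippocampus. The brainstem count was 4 without KO or WT array 1 and 13 without KO array 2. The replicate block changed no call of a member, with adjusted p = 0.00629 for brainstem minus cortex of AK045391, or 0.0128 with genotype and number as the block. The r of AK017540 and Nfe2l2 over WT arrays ran from -0.26 to 0.17 over left-out arrays. A filter of 2 groups leaves AK012417 untested.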
